A study of Mus musculus with 6 samples.

Results

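The tumour necrosis factor (TNF) ligand and receptor superfamilies were examined in mouse thymus cells that the sample descriptions call double negative thymocytes. These are T cell precursors at a stage before CD4 and CD8 appear. Members were chosen by gene symbol, with earlier results of these data known. A probe set (a set of probes read out as 1 value) was taken if its platform symbol begins with Tnfsf or Tnfrsf. Those named Tnf, Lta, Ltb, Ltbr, Fas, Fasl, Cd40, Cd40lg, Cd27 or Cd70 were taken too. That gave 62 of 45037 probe sets. Of these, 59 carry 1 symbol and stand for 37 of 18193 genes named on the array: 13 ligands, 23 receptors and the antisense transcript Tnfsf13os. The other 3 carry several symbols and are the only probe sets for Tnfsf12, Tnfsf13 and Tnfsfm13.

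Ligands of this family are mostly membrane proteins that act as trimers, on the cell surface or after being shed. They bring together receptors that share cysteine-rich repeats outside the cell. Receptors with a cytoplasmic death domain can start caspase activation, whereas the others recruit TRAF adaptors and lead to NF-kappaB and MAP kinase signalling; decoy receptors bind ligand without passing on a signal. In the thymus, lymphotoxin, RANK ligand and CD40 ligand made by lymphoid cells are known to act on the medullary epithelium, and GITR, OX40 and 4-1BB are known from T cell costimulation and from regulatory T cell development. The EGR transcription factors are induced by pre-T cell receptor signals, and Fasl is a known target of EGR factors in activated T cells.

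Expression was read from 6 arrays of 1 colour. By label, 3 are wild type and 3 come from mice lacking both Egr1 and Egr3 (double knockout, double KO), and each array is given as 1 animal. The p-values measure the spread between these arrays. Descriptions say that cells were sorted by flow cytometry, whereas titles and source names say whole thymus. The labels used here give no strain, age, sex or treatment for either group, and no details of either disrupted allele. The deposited values are linear intensities, scaled so that the mean of the middle 96% of values was about 150 on each array. Detection calls were not used here; instead each array was read against the brightest of its 27 control probe sets for Bacillus subtilis genes, which lay between 19.0 and 29.9.

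Several facts about the arrays touch every result. Egr1 was at 508, 509 and 455 in wild type and at 1757, 1696 and 1221 in double KO, so it was higher where the label says that it was disrupted (log2 change 1.60, SE 0.24, limma adjusted p = 0.00312, n = 3 and 3). The 2 Egr3 probe sets gave changes of -0.59 (SE 0.32, adjusted p = 0.368) and -0.07 (SE 0.32, adjusted p = 0.941). No source used here places these probe sets relative to the disrupted parts, and outside those parts a signal checks nothing, so directions below are stated for the arrays labelled double knockout. The Y-linked gene Eif2s3y read 476 on wild type replicate 1, 186 to 265 in double KO and at most 13.2 on wild type replicates 2 and 3, while the brightest of 3 probe sets for Xist, which is made in female cells, read between 1439 and 6015 on all 6 arrays. Whether each of those 4 arrays holds RNA of 1 animal is therefore not settled. Wild type replicate 3 stood apart in a list of 8 granulocyte genes, whose summed intensity was 304 there and between 11397 and 27582 on the other 5 arrays. Of the genes that define the sorted stage, Ptcra, Il2ra and Dntt were well above the controls on every array. Of the genes of later stages, Cd4 was below the controls on all 6 arrays, whereas Cd8a (68.5 to 197) and Cd8b1 (65.9 to 137) were above them on all 6, with changes of -0.51 (SE 0.30) and 0.02 (SE 0.29) that did not pass. In RNA from many cells, a lower share of cells of 1 type and less RNA per cell cannot be told apart.

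Within the family, 6 genes were higher in the arrays labelled double knockout: the ligands Ltb, Tnfsf14, Tnf and Fasl and the receptors Tnfrsf18 and Tnfrsf12a. No member was lower. Changes were measured as log2 of intensity plus 16, with each array centred on its median, which understates changes of dim genes. They were tested with limma, with adjusted p-values (Benjamini-Hochberg, threshold 0.05) over all 27022 probe sets bright enough to test. Of the 43 member probe sets among these, 6 passed upward (14.0%), against 2.91% of all probe sets tested, and 0 passed downward, against 2.11% (5.03% in either direction); at an unadjusted p of 0.05 the members gave 15 upward, against 9.86% of all tested, and 3 downward, against 8.90%. The median change of the tested members was 0.17, against 0.00 for all tested probe sets, and 25 of 43 lay above 0, against 50.3% of all. For 9 of the 43, Tnf and the first Tnfrsf12a probe set included, the mean of only 1 group was above the brightness limit, so that a difference was a condition of their being tested, and these counts describe the tested probe sets only.

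**Figure D1:**
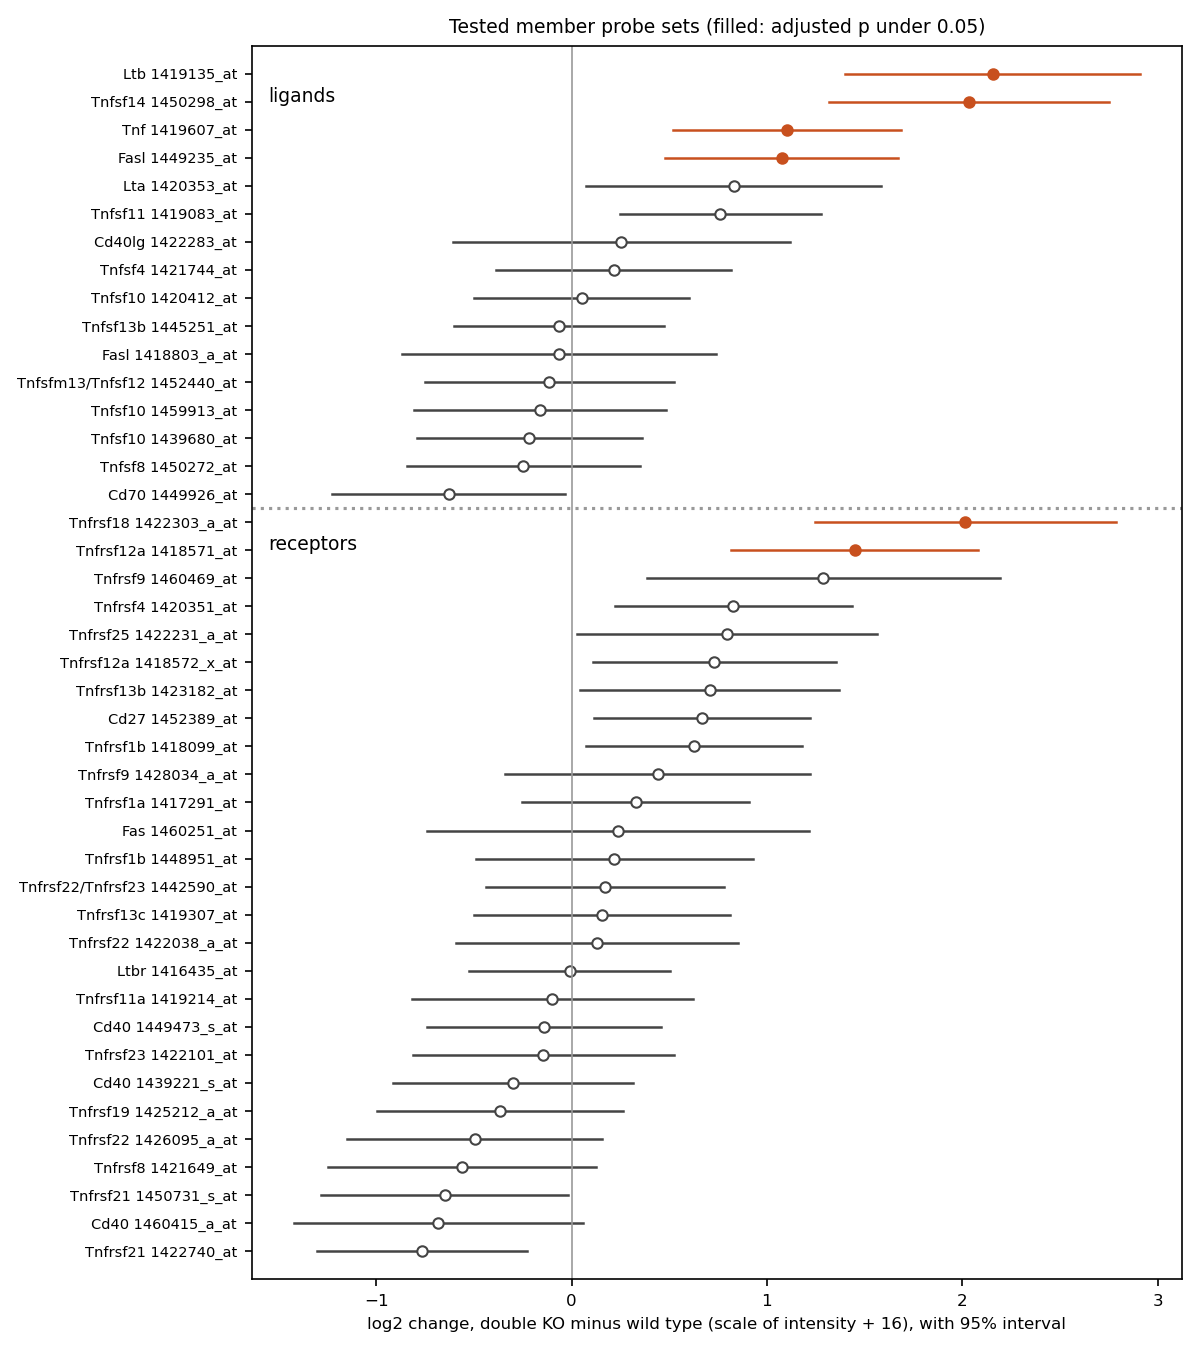
Log2 change (double KO minus wild type, on the scale of intensity plus 16) of the 43 tested member probe sets, ligands above the dotted line and receptors below it, with 95% intervals from limma; filled points have an adjusted p under 0.05. The 6 filled points all lie to the right of 0, led by Ltb at 2.16.

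The count of 6 depended on the arrays used. It was 2 without double knockout replicate 1, 3 without double knockout replicate 2 or without wild type replicate 1 or 2, and 4 without double knockout replicate 3. Without wild type replicate 3 it was again 6, with Tnfsf11 in and Fasl out, and 1 member, Tnfrsf21, passed downward. Ltb and Tnfsf14 were past the threshold in all 6 of these fits. Calls over all probe sets moved too, from 1358 with all arrays to 376 and 611 without double knockout replicate 1 and 2. They were 694 without double knockout replicate 3, 713 and 699 without wild type replicate 1 and 2, and 2744 without wild type replicate 3.

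Of the ligands, Ltb encodes lymphotoxin beta, which holds lymphotoxin alpha at the cell surface. It read 518, 1104 and 1508 in wild type and 4843, 4785 and 3569 in double KO. Even the dimmest of the latter was above the brightest wild type array, although wild type replicate 1 was clearly below the other wild type arrays. The change was 2.16 (SE 0.34, adjusted p = 0.00467), with means of 1043 ± 498 and 4399 ± 719 (SD, n = 3 each).

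Tnfsf14 encodes LIGHT, which binds the lymphotoxin beta receptor and HVEM, the product of Tnfrsf14. The brighter of its probe sets gave 32.5, 76.3 and 38.2 in wild type and 212, 364 and 184 in double KO. The groups were apart by a wide margin, and all 6 values were above the controls. The change was 2.04 (SE 0.33, adjusted p = 0.00486), from 49.0 ± 23.8 to 253 ± 96.6 (SD, n = 3 each). A second Tnfsf14 probe set stayed between 1.40 and 13.7, below the controls on every array, and was not tested.

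Tnf itself, the founding inflammatory cytokine of the family, was dim. It read 8.03, 10.2 and 5.15 in wild type and 34.0, 33.3 and 39.7 in double KO. All 3 wild type values were below the brightest control of their array and all 3 others were above it, so the wild type level is only bounded by the controls. The change was 1.10 (SE 0.27, adjusted p = 0.0362), and it lost its call in 5 of the 6 fits that left out 1 array (adjusted p between 0.0476 and 0.144 over the 6).

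Fasl, which encodes the ligand of the death receptor Fas, rose on 1 of its 2 probe sets. That probe set read 28.8, 41.5 and 21.5 in wild type and 58.8, 98.7 and 93.5 in double KO, without overlap between the groups. The change was 1.08 (SE 0.27, adjusted p = 0.0447), and in each of the 6 fits that left out 1 array the adjusted p was above the threshold, between 0.0512 and 0.150. The second Fasl probe set read between 6.08 and 33.8 with the groups mixed, a change of -0.06 (SE 0.37, adjusted p = 0.951).

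Among the receptors, Tnfrsf18 encodes GITR, a costimulatory receptor that is abundant on regulatory T cells. It read 357, 472 and 1041 in wild type and 2455, 2890 and 1819 in double KO. Wild type replicate 3 lay between the other wild type arrays and the arrays labelled double knockout, but the groups did not overlap. The change was 2.01 (SE 0.35, adjusted p = 0.00735), from 623 ± 366 to 2388 ± 539 (SD, n = 3 each). Without wild type replicate 3 it was 2.44, and without double knockout replicate 1 it was 1.96 with an adjusted p of 0.0535.

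Tnfrsf12a encodes Fn14, the receptor of the ligand TWEAK. Its first probe set read 5.58, 8.08 and 13.1 in wild type and 54.6, 74.3 and 34.2 in double KO. As for Tnf, all 3 wild type values were below the controls and all 3 others were above them. The change was 1.45 (SE 0.29, adjusted p = 0.0152). A second probe set, of the kind marked as able to read related sequences, gave 23.3, 13.6 and 32.1 against 68.1, 40.3 and 39.9, a change of 0.73 (SE 0.28) that did not pass (adjusted p = 0.185). The call of the first was lost without wild type replicate 1 or 2 and without double knockout replicate 1 or 2 (adjusted p from 0.0541 to 0.0851). Where the brighter probe set alone stood for each gene, Tnfrsf12a was represented by the second and 5 members passed.

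**Figure D2:**
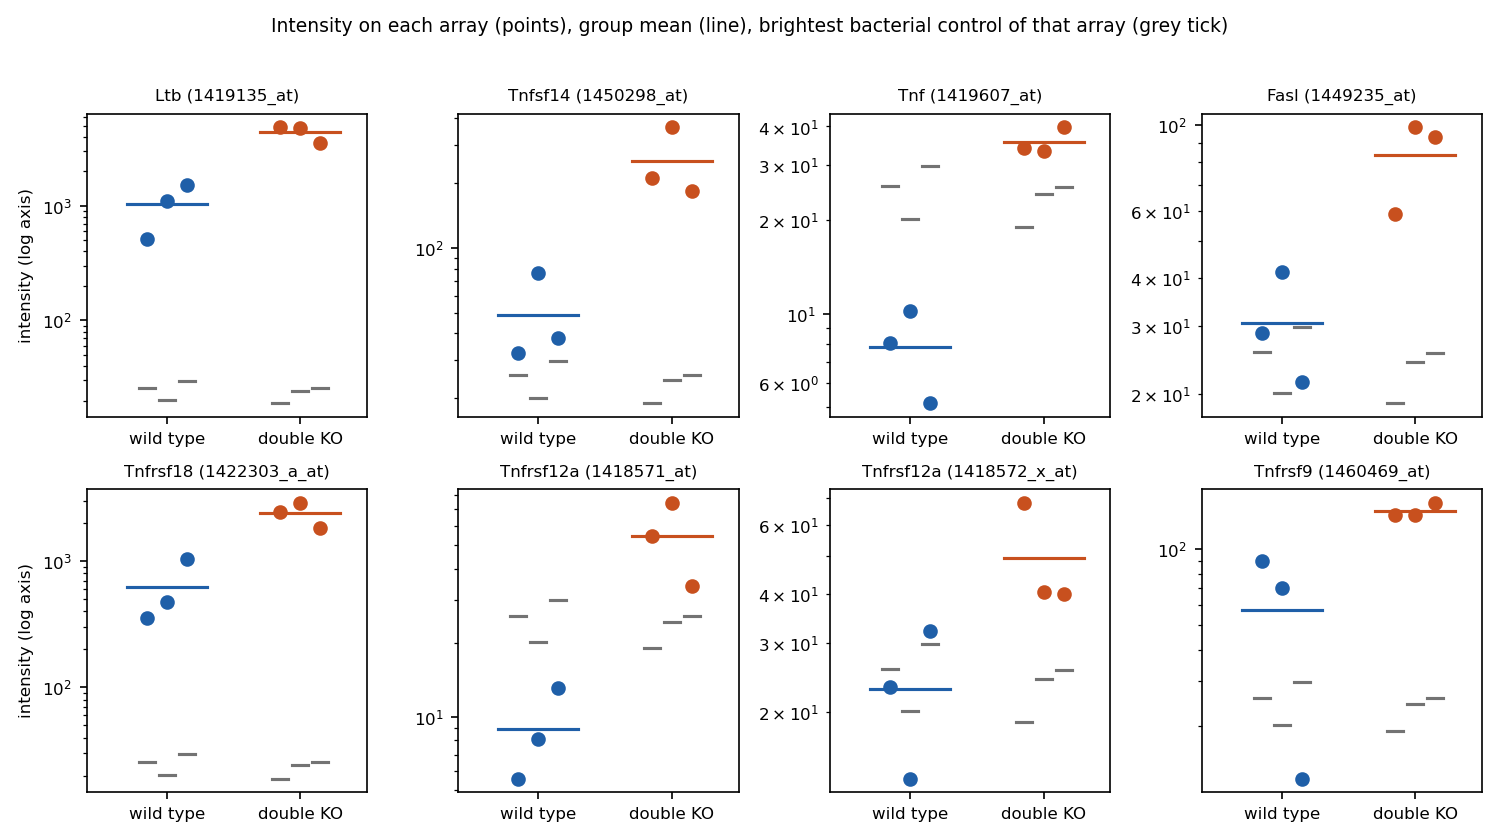
Intensity (log axis) of 8 member probe sets on each array: points are arrays, coloured lines are group means (n = 3 each), and grey ticks mark the brightest bacterial control of the same array. The groups do not overlap in any of the 8 panels, while Tnf and the first Tnfrsf12a probe set lie below the control ticks on all 3 wild type arrays.

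Promoter sequences from RefSeq (GRCm38.p6) were at hand for 28 of the 37 genes, in 32 windows of 250 bases before the gene start. The windows of Ltb, Tnfsf14 and Tnfrsf12a are shown because these members rose and hold a motif searched for, and that of Fasl because it is a known EGR target. Capitals mark matches to GCGNGGGCG (EGR), TGANTCA (AP-1) or the NF-kappaB consensus, on both strands.
Ltb (chr17:35194257-35194506, strand +): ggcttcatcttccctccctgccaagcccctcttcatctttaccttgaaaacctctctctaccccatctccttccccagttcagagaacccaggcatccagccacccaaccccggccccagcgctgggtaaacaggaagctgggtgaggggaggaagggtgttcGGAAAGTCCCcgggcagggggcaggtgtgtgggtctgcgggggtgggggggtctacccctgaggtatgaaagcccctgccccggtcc
Tnfsf14 (chr17:57194182-57194431, strand -): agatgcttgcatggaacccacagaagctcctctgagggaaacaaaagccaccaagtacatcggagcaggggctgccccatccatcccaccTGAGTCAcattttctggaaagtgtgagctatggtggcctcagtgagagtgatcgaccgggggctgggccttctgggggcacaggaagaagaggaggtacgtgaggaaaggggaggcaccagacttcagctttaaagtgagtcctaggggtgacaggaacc
Tnfrsf12a (chr17:23677450-23677699, strand -): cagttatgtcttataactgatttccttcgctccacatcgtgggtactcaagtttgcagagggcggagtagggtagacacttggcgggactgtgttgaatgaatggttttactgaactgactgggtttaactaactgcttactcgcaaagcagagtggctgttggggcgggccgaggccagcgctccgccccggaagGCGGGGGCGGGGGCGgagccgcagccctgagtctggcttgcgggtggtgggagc
Fasl (chr1:161788496-161788745, strand -): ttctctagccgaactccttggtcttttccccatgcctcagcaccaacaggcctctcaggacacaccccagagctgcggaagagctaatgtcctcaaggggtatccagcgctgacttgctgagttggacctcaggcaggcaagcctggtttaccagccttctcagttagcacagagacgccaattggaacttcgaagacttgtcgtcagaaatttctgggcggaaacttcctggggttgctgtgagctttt
The capitals in Ltb are an NF-kappaB consensus match at 87 to 78 bases before the start, and those in Tnfsf14 an AP-1 match at 160 to 154 bases before it. In Tnfrsf12a they are a pair of EGR matches that overlap each other, at 54 to 46 and 48 to 40 bases before the start. The Fasl window holds none of the 3 letter patterns. The same is true of the windows of Tnf and Tnfrsf18, which rose too and are not shown. That says nothing about sites elsewhere. Across all 32851 windows of this length in the table, 4.70% held the EGR pattern, 6.75% the AP-1 pattern and 7.25% the NF-kappaB consensus. Of the 32 member windows, 1 held the EGR pattern, 5 the AP-1 pattern (Fas, Tnfrsf8, Tnfrsf9, Tnfsf13b and Tnfsf14) and 4 the NF-kappaB consensus (Ltb, Tnfrsf8, Tnfrsf9 and Tnfrsf25). A match to these letters is a description and not a binding site.

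Members are clustered in the genome, and the values of adjacent genes are given side by side; differences between neighbours were not tested. In the order of protein-coding genes of the same assembly, Ltb, Tnf and Lta follow each other on chromosome 17. Lta encodes lymphotoxin alpha, a soluble homotrimer that also pairs with lymphotoxin beta. It read 8.12, 32.0 and 4.28 in wild type and 33.8, 38.2 and 34.7 in double KO, a change of 0.83 (SE 0.34) that did not pass (adjusted p = 0.216), with wild type replicate 2 close to the arrays labelled double knockout. Of the wild type arrays only replicate 2 was above the brightest control, and Lta reached the brightness limit in double KO only. Its level on the other wild type arrays is therefore only bounded by the controls. Elsewhere on chromosome 17, Tnfsf9, Cd70 and Tnfsf14 are adjacent. Cd70, the ligand of CD27, read 22.5, 28.3 and 27.2 in wild type and 14.0, 8.15 and 12.5 in double KO, a change of -0.63 (SE 0.27, adjusted p = 0.237) that did not pass. It was above the brightest control on 1 of 6 arrays and reached the brightness limit in wild type only, so its level in double KO is only bounded by the controls. Tnfsf9, the ligand of 4-1BB, was too dim to be tested.

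On chromosome 4, Tnfrsf18 lies next to Tnfrsf4, which encodes the costimulatory receptor OX40. Tnfrsf4 read 86.0, 33.5 and 61.0 in wild type and 98.4, 117 and 133 in double KO. Its groups did not overlap, but the change of 0.83 (SE 0.28) did not pass (adjusted p = 0.120). Tnfrsf1b and Tnfrsf8 are likewise adjacent on that chromosome. The Tnfrsf8 probe set was above the controls on none of the 6 arrays, so the sign of its change cannot be read.

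Tnfrsf9, Cd27 and Tnfrsf25 each have a probe set without overlap between the groups, higher in double KO, as 12.3% of all tested probe sets had, and none passed the test. Tnfrsf9 encodes 4-1BB. Its brightest probe set read 90.0, 69.9 and 12.3 in wild type and 136, 136 and 153 in double KO, a change of 1.29 (SE 0.41, adjusted p = 0.104). Much of this rested on wild type replicate 3, which was below the controls: without it the change was 0.70 (adjusted p = 0.0910). A second Tnfrsf9 probe set overlapped between the groups (0.44, SE 0.36, adjusted p = 0.568), and the third was below the controls on all 6 arrays and not tested. Cd27, whose product supports thymocyte and T cell survival, read 304, 453 and 382 against 608, 562 and 676, a change of 0.67 (SE 0.25, adjusted p = 0.173). Tnfrsf25, which encodes the death domain receptor DR3, gave a change of 0.80 (SE 0.35, adjusted p = 0.247), with wild type replicate 3 at 1.80 and the other wild type arrays at 20.1 and 27.1.

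Both receptors for TNF were above the controls on every array. Tnfrsf1a, the death domain receptor, read 279, 240 and 158 in wild type and 299, 270 and 285 in double KO, a change of 0.33 (SE 0.27, 95% interval -0.25 to 0.91, adjusted p = 0.568). Tnfrsf1b, which lacks a death domain, read 464, 515 and 335 against 671, 769 and 617 on its brighter probe set. The groups did not overlap there, but the change of 0.63 (SE 0.25) did not pass (adjusted p = 0.201). A dimmer Tnfrsf1b probe set gave 0.22 (SE 0.32).

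For the receptor shared by lymphotoxin and LIGHT the estimate was near 0. Ltbr read 50.0, 49.7 and 49.1 in wild type and 38.9, 52.9 and 59.7 in double KO, a change of -0.01 (SE 0.24, 95% interval -0.53 to 0.51, adjusted p = 0.989). Its interval excludes a change as large as those estimated for its ligands Ltb and Tnfsf14. Tnfrsf14, the other receptor of LIGHT, was below the controls on all 6 arrays, between 1.25 and 13.9. Fas, the death receptor bound by Fas ligand, varied too much to place: it read 20.6, 1.72 and 42.1 against 30.5, 45.1 and 6.52, with a change of 0.24 and a 95% interval from -0.74 to 1.22.

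Tnfsf11, which encodes RANK ligand, read 89.0, 101 and 120 in wild type and 176, 208 and 180 in double KO. The groups were apart and the change of 0.76 (SE 0.24) missed the threshold (adjusted p = 0.0916), but passed it without wild type replicate 3 (0.85, adjusted p = 0.0449). Its receptor RANK, from Tnfrsf11a, gave a change of -0.10 (SE 0.33) on its tested probe set, and osteoprotegerin, the soluble decoy from Tnfrsf11b, was below the controls on all arrays with both probe sets. Tnfsf10, which encodes TRAIL, gave changes of -0.22, -0.16 and 0.05 on its 3 probe sets, and none passed. Tnfrsf10b, the TRAIL death receptor, was not tested on either probe set, and the decoys Tnfrsf22 and Tnfrsf23 gave changes between -0.50 and 0.13 on their own tested probe sets.

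Toward lower values, Tnfrsf21, which encodes the death domain receptor DR6, had the largest fall in estimate. It read 78.0, 62.1 and 48.3 in wild type and 32.1, 32.3 and 26.8 in double KO. The groups did not overlap, and the change of -0.77 (SE 0.25) did not pass (adjusted p = 0.105), although leaving out wild type replicate 3 brought it past the threshold (-0.91, adjusted p = 0.0420). The second Tnfrsf21 probe set gave -0.65 (SE 0.29, adjusted p = 0.251), with the groups overlapping. Cd40, a receptor of B cells and antigen-presenting cells, gave -0.68 (SE 0.34), -0.30 (SE 0.28) and -0.14 (SE 0.27) on its 3 probe sets, and its ligand gene Cd40lg gave 0.25 (SE 0.39). The Cd40 probe set at -0.68 was above the brightest control on 1 of 6 arrays and reached the brightness limit in wild type only. The other Cd40 probe sets were above the controls on every array. Tnfrsf8, which encodes CD30, gave -0.56 (SE 0.31), with an adjusted p of 0.380, and its ligand gene Tnfsf8 gave -0.25 (SE 0.27), both below the controls on every array.

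Receptors of the B cell survival factors were measured as well. Tnfrsf13b, which encodes TACI, read 158, 283 and 300 in wild type and 402, 518 and 317 in double KO, a change of 0.71 (SE 0.30, adjusted p = 0.231). The BAFF receptor gene Tnfrsf13c gave 0.16 (SE 0.30), and the BAFF gene Tnfsf13b gave -0.06 (SE 0.25) on its tested probe set. Tnfrsf17, which encodes BCMA, was not tested. In a list of 9 B cell genes, the summed intensity ranged from 5817 to 8949 in wild type and from 5031 to 6094 in double KO. Ighm was its largest part on every array, from 4255 to 7734 in wild type and from 2437 to 3724 in double KO. Of 8 tested genes, 1 was higher (Cd79b) and none lower, against 3.72% and 2.54% of all genes. The part of B cells in these values was not tested.

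**Figure D3:**
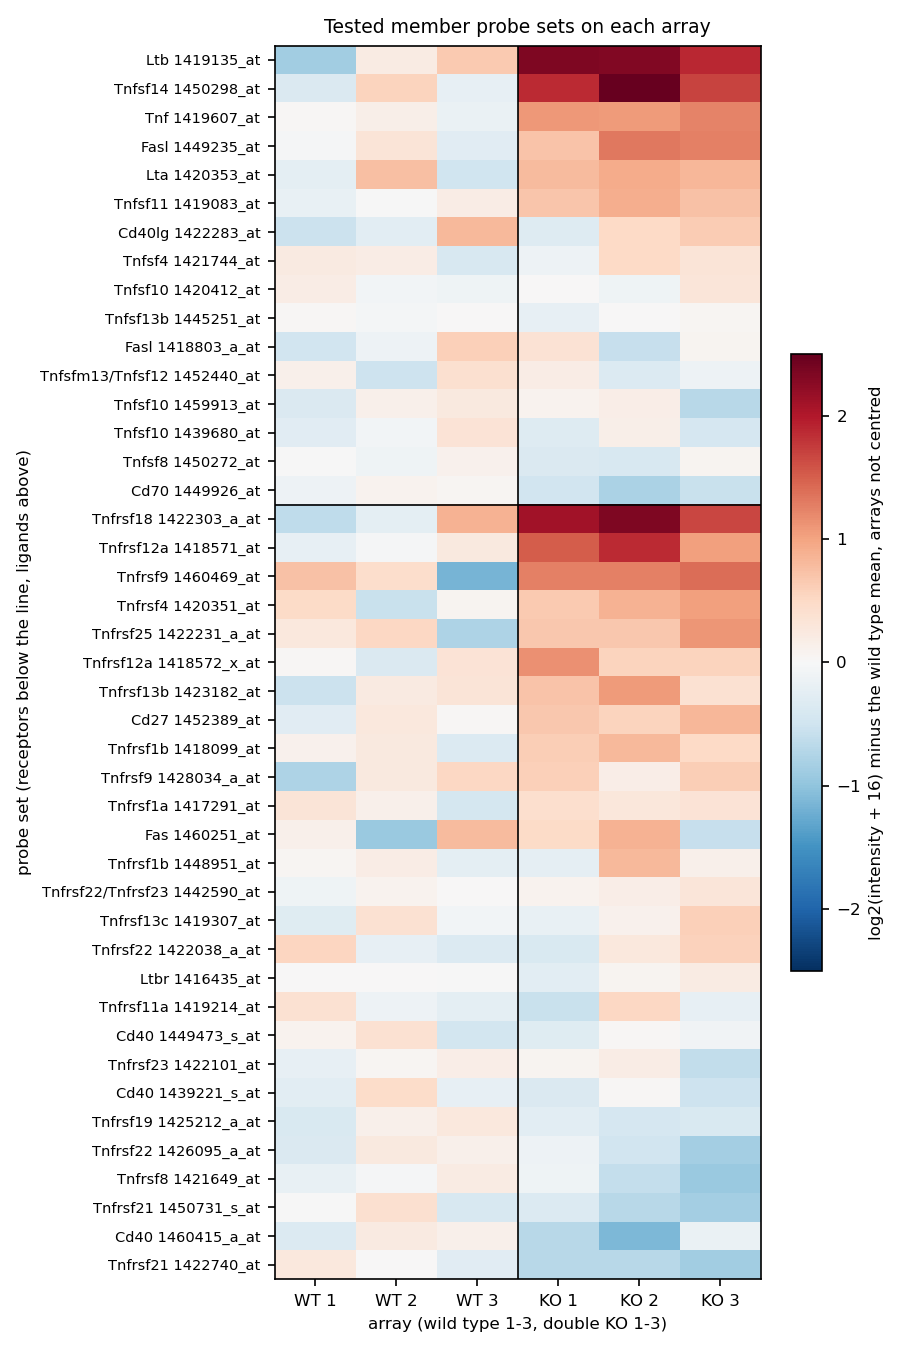
Log2 of intensity plus 16 on each array minus the mean of the wild type arrays, without centring of arrays, for the 43 tested member probe sets, ligands above the horizontal line and receptors below it. Ltb, Tnfsf14 and Tnfrsf18 are high on the 3 arrays labelled double knockout, and wild type replicate 3 departs from the other wild type arrays in Tnfrsf9 and Tnfrsf18.

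Groups that did not overlap were found for 15 tested member probe sets upward, against 12.3% of all tested, and for 2 downward (Cd70 and Tnfrsf21), against 11.6%. Of these, Tnf, Lta and the first Tnfrsf12a probe set reached the brightness limit in double KO only, and Cd70 in wild type only. For them a difference was a condition of being tested. Tnf and that Tnfrsf12a probe set are also in the counts by role that follow. Of all tested probe sets, 2.91% passed the test upward. By role, 4 of 15 tested ligand probe sets with 1 symbol did so, and 2 of 18 of receptors without a death domain. The counts were 0 of 5 for death domain receptors and 0 of 3 for decoy receptors. The medians were 0.22, 0.33, 0.24 and -0.15 in that order, and the difference between roles was not tested. The remaining 19 member probe sets did not reach the brightness limit. They read between 0.18 and 38.4, with 4 of them above the controls on any array, and in a fit without the limit their changes lay between -0.54 and 0.46, with 0 of 19 past the threshold (smallest adjusted p = 0.439). The 6 genes without a tested probe set of their own were Tnfsf9, Tnfrsf10b, Tnfrsf11b, Tnfrsf14, Tnfrsf17 and Tnfsf13os. For 6 genes no probe set of their own was above the brightest control on any array: Tnfrsf8, Tnfrsf11b, Tnfrsf14, Tnfrsf17, Tnfsf8 and Tnfsf13os. The OX40 ligand gene Tnfsf4 (0.22), the receptor gene Tnfrsf19 (-0.37) and the probe set shared by Tnfsfm13 and Tnfsf12 (-0.11) were tested and did not pass.

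Genes that act after the receptors were taken as 4 lists, with the probe set of highest mean for each gene. Of their 63 tested genes, 8 rose and none fell, against 3.72% and 2.54% of all 13187 genes. The lists were chosen with earlier results of these data known, so these counts describe the listed genes only. Their median change was 0.23, against -0.01 for all genes.

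In the list of NF-kappaB subunits and feedback genes, 5 of 17 rose and none fell (median 0.30). None of the 5 was a subunit gene. Of the subunit genes, Nfkb2, Rela and Relb were tested, and Nfkb1 and Rel were not. Nfkb2 (-0.57, SE 0.28), above the controls on 3 of 6 arrays, and Rela (-0.18, SE 0.30) did not pass. Nfkbie (-0.62, SE 0.31), Nfkbib (-0.44, SE 0.37) and Nfkbiz (0.30, SE 0.23) did not pass on their brightest probe sets. Nfkbia encodes the inhibitor that NF-kappaB itself induces. Its brightest probe set read 6345, 5948 and 5826 in wild type and 10905, 11804 and 10422 in double KO, a change of 0.85 (SE 0.17, adjusted p = 0.0132). Another 3 of its 5 probe sets rose too, by 1.51, 1.66 and 1.88, and the fifth gave 0.44 (adjusted p = 0.326). Tnfaip3, which encodes the ubiquitin-editing inhibitor A20, read 282, 225 and 477 against 818, 1120 and 773, a change of 1.45 (SE 0.29, adjusted p = 0.0153). Its dimmer probe set gave 0.02.

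The other risers of that list belong to the TIPE family, of which only Tnfaip8 is named for induction by TNF and the others for their likeness to it. Tnfaip8l1 rose by 1.64 (SE 0.27, adjusted p = 0.00593), Tnfaip8l2 by 1.26 (SE 0.28) and Tnfaip8 by 1.11 (SE 0.22), with a dimmer Tnfaip8 probe set at 0.50 that did not pass. The subunit gene Relb read 12.3, 16.4 and 31.2 against 52.4, 43.2 and 58.5, but its change of 0.92 (SE 0.28) did not pass (adjusted p = 0.0839). Named after its values were seen, Cyld, a deubiquitinase that limits NF-kappaB signalling, gave 0.86 (SE 0.24, adjusted p = 0.0599) on its brightest probe set and rose by 1.00 (SE 0.24, adjusted p = 0.0387) on a second.

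Among adaptors and signal transducers, 2 of 23 rose and none fell (median 0.02). Traf5, an adaptor of the lymphotoxin beta receptor, CD27 and other members, read 50.9, 79.8 and 55.4 in wild type and 137, 175 and 151 in double KO, a change of 1.12 (SE 0.25, adjusted p = 0.0261). Map3k5, which encodes the stress kinase ASK1, rose by 0.94 (SE 0.24, adjusted p = 0.0487). Dimmer probe sets of Traf5 (0.31) and Map3k5 (0.55) did not pass. Of the death and survival effectors, 1 of 14 rose and none fell (median 0.37). It was Birc3, which encodes the ubiquitin ligase cIAP2 and is itself an NF-kappaB target: it read 217, 215 and 149 against 614, 602 and 647, a change of 1.60 (SE 0.25, adjusted p = 0.00389), while a dim second probe set gave 0.03. For other receptors of this fold and ligand processing, 0 of 9 passed (median 0.13). The count of 8 was 1 without double knockout replicate 1, 2 without double knockout replicate 2, 3 without wild type replicate 1, 4 without double knockout replicate 3, 5 without wild type replicate 2 and 10 without wild type replicate 3, where Relb and Traf3ip3 joined and 1 gene, Nfkbie, was lower (-0.95). Calls over all probe sets ranged from 376 to 2744 in these fits, against 1358 with all arrays.

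**Figure D4:**
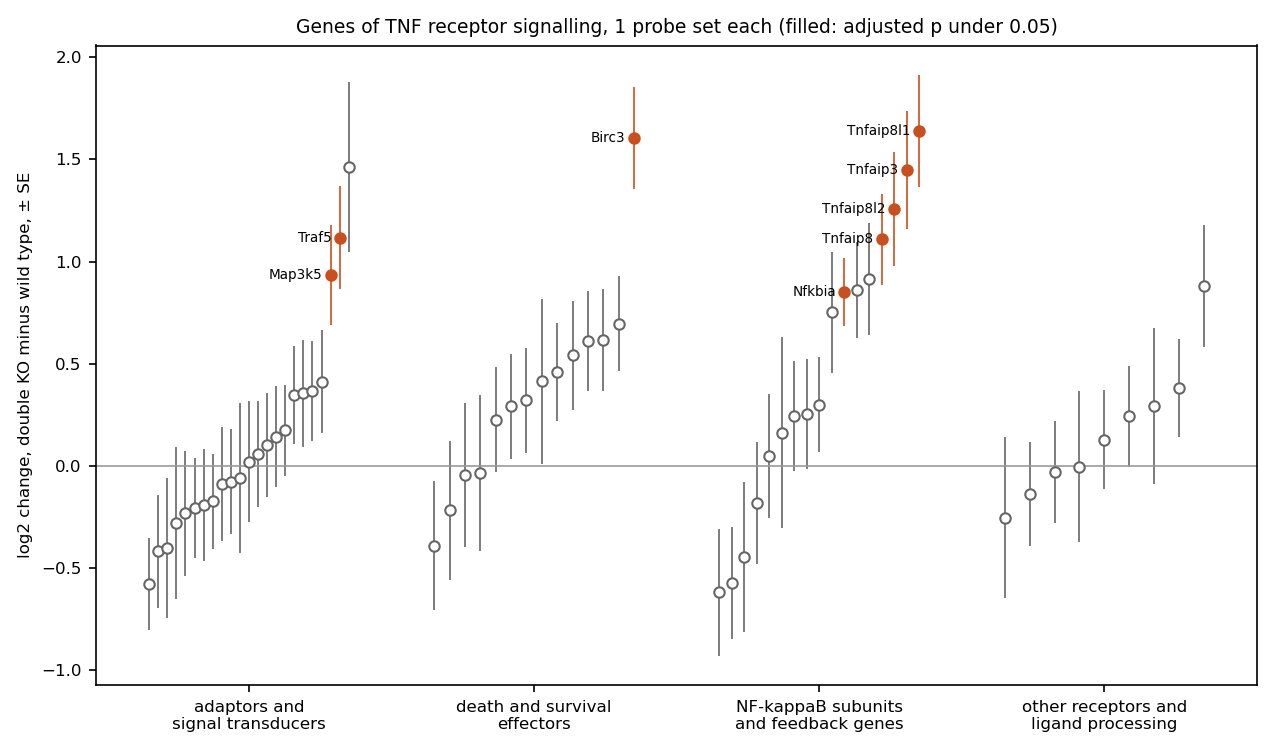
Log2 change (double KO minus wild type, with the moderated SE as bars) of 63 genes that act with or after TNF receptors, in 4 lists; filled and named points have an adjusted p under 0.05. The 8 filled points are above 0, 5 of them in the list of NF-kappaB subunits and feedback genes. There none of the tested subunit genes (Nfkb2, Rela and Relb) passed, and Nfkb1 and Rel were not tested.

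Some markers of other cells differed between the groups as well, and others did not. For the counts below, 3.72% of all 13187 tested genes were higher and 2.54% were lower. In the list of regulatory and mature T cells, 3 of 8 tested genes were higher and none lower (Ctla4, Klf2 and Il7r). The summed intensity of its 9 measured genes went from 2389 to 2682 in wild type up to 6445 to 7595 in double KO. Il7r and Ctla4 were its brightest genes on every array. Foxp3, which defines regulatory T cells, lay between 12.4 and 23.6 and was above the brightest control on 1 of 6 arrays (wild type replicate 2), with a change of -0.08 (adjusted p = 0.914). In the list of NK and cytotoxic cells, 4 of 9 tested genes were higher (Nkg7, Klrd1, Gzmb and Il2rb). Its defining marker Ncr1 was below the controls on all arrays. Its sum was 11497 to 16373 in wild type and 14563 to 15368 in double KO. Most of that sum was Gzma on every array, from 10727 to 15852 in wild type and from 10488 to 13005 in double KO. Gzma gave a change of -0.08 (SE 0.19). In the list of double negative thymocytes, 3 of 13 were lower (Ptcra, Il2ra and Dntt), and its sum fell from between 43671 and 55383 to between 30154 and 32015. The granulocyte list, whose outlying array was wild type replicate 3, had 0 of 8 genes past the test. Some of its estimates were large with wide SEs, such as 3.10 (SE 1.51) for S100a8 and 1.92 (SE 0.77) for Camp. Those of Elane (-0.16, SE 0.24) and Mpo (-0.69, SE 0.37) were below 0. In the macrophage and dendritic cell list 1 of 10 was higher (Cd14), with sums from 1584 to 4657 in wild type and from 2805 to 3280 in double KO. In the thymic epithelium and stroma list none of 8 passed, with 2 of 11 genes below the controls on all arrays. Its sum was 461 to 2047 in wild type and 1107 to 3100 in double KO. Most of that sum was Epcam on every array, with a change of 1.48 (SE 0.59) that did not pass. The part of these cell types in the changes of the members was not tested.

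**Figure D5:**
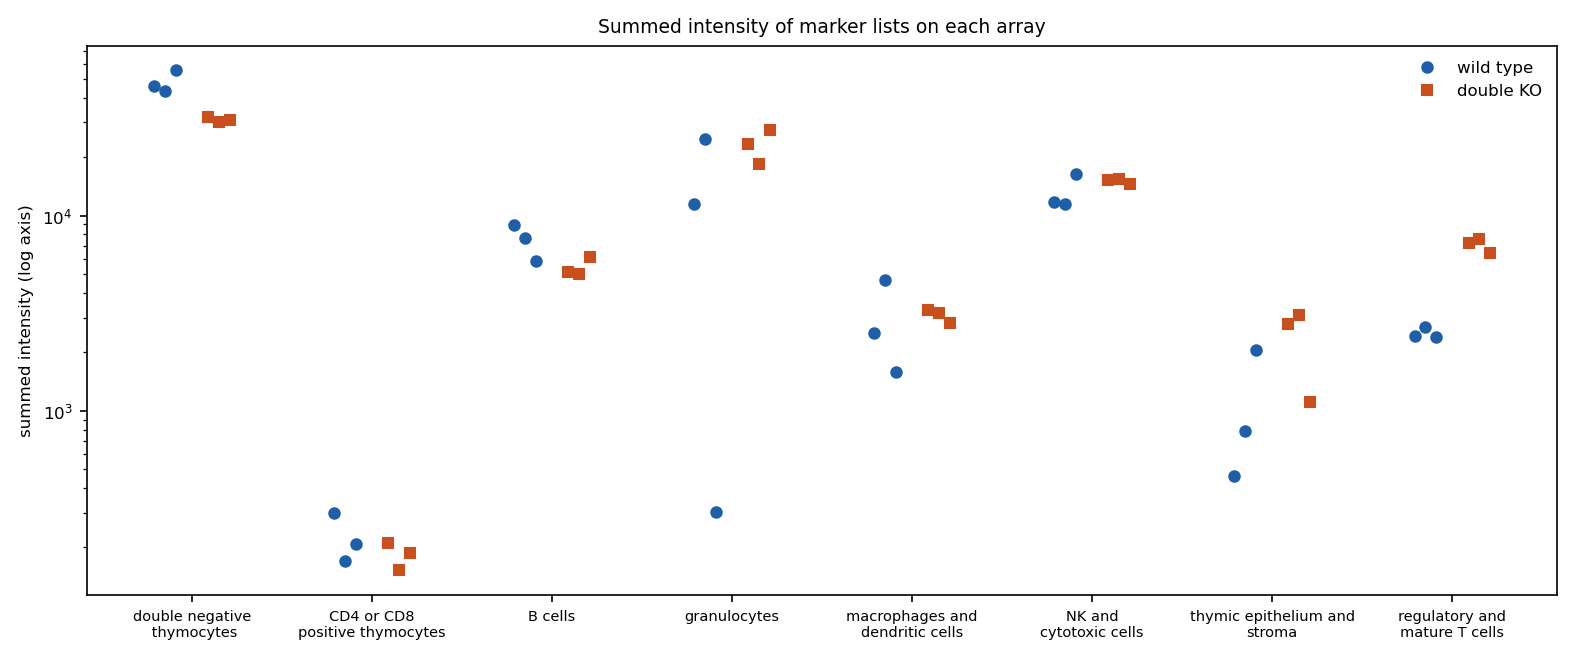
Summed intensity (log axis) of the measured genes of 8 marker lists on each array, wild type as circles and double KO as squares (n = 3 each). The groups are apart for double negative thymocytes, where wild type is higher, and for regulatory and mature T cells, where double KO is higher; the low circle among granulocytes is wild type replicate 3.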

How the data were processed

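Cells given as sorted double negative thymocytes in the descriptions, and as whole thymus in the titles, were profiled on 6 single-colour arrays. By the labels 3 are wild type and 3 Egr1/Egr3 double knockout. The authors' deposited table holds linear intensities per probe set; the sources used here name neither scanner software nor probe summary. The 64 control probe sets of 45101 were left out of the tests. Genes were named from a platform annotation table, members by its symbol as it stands and others with symbols updated through RefSeq (GRCm38.p6). An offset of 16 was added, log2 taken and each array centred on its median (medians differed by 0.126). Probe sets under the 40th percentile of mean log2 value (4.87, an intensity of 13.2) were left out, which left 27022. Groups were compared with limma 3.58.1 in R 4.3.3 (lmFit, eBayes with an intensity trend, Benjamini-Hochberg over all tested probe sets); SE is its moderated standard error. The method was tested on simulated data. The number of arrays limits the precision. All members and lists were chosen with earlier results of these data known. Named were the members past the threshold, the 6 largest rises and falls, the members under the controls on every array, Egr1, Egr3, and the list genes past the threshold; others serve to account for each member. Alternatives were other scalings, offsets of 1 and 64, no filter or the 60th percentile, no trend, weighted arrays, 1 probe set a gene, a replicate block, and each array left out.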

Additional observations from a re-analysis of the deposited data

How the results depend on the processing

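For 13 member probe sets, those past the threshold and those with the largest rises and falls, 12 to 16 alternatives each gave a value, and no change turned its direction; single values of other members were not compared. Ltb and Tnfsf14 passed in all 16; Tnfrsf18 in 15 of 16; Tnfrsf12a in 10 of the 14 that tested that probe set; Tnf in 7 of 15; Fasl in 5 of 16. Tnf and Fasl lost their calls with an offset of 1, with no filter and with the replicate block. Leaving out 1 array at a time, member calls ranged from 2 to 6 upward and from 0 to 1 downward, calls in the signalling lists from 1 to 10 upward and from 0 to 1 downward, and calls over all probe sets from 376 to 2744 (1358 with all arrays). With array weights 3417 probe sets passed, 9 members rose, 1 member fell (Tnfrsf21) and 1 list gene fell (Nfkbie). Without the filter 5 list genes rose. With the replicate block 573 probe sets, 4 members and 2 list genes passed. The same-numbered arrays had correlations of deviations from their group means of -0.05, -0.13 and -0.29. Deviations within a group are tied to each other, so such values cannot decide whether the numbers pair the arrays. The causes of the differences between settings were not tested. Under the other scalings, values as deposited and quantile normalization, 6 members rose each time. For probe sets near the controls, low signal limits what can be said.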
